A study of Mus musculus with 4 samples.

Results

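Mitochondrial ribosomal protein genes are the nuclear genes whose symbols start with Mrpl or Mrps, followed by a number. They were taken as all probe sets annotated to a single gene with such a symbol on the Affymetrix designs MOE430A and MOE430B. There were 160 such probe sets among the 45137 probe sets of both designs that are not controls, 127 on MOE430A and 33 on MOE430B. They read 76 genes, 47 named for the large subunit (Mrpl) and 29 for the small subunit (Mrps), among 18193 genes on the arrays. Another 4 probe sets, naming Mrpl30, Mrpl53 or Mrps34 together with a neighbouring gene or a predicted gene, were left out, so that Mrpl30 and Mrpl53 are not analysed here.

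Mitochondria hold their own ribosome, the mitoribosome, which translates the few proteins encoded by mitochondrial DNA, all of them subunits of the respiratory chain or of ATP synthase. Its RNA comes from mitochondrial DNA, but all of its proteins are encoded in the nucleus, made in the cytosol and imported. The small subunit reads the messenger RNA and the large subunit joins the amino acids. Many of its proteins stand where a bacterial ribosomal protein stands, while others have no bacterial counterpart and were added during the evolution of mitochondria.

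The series measured RNA of whole lung from embryos at E18.5, shortly before birth. One group carried null alleles of both Myf5 and Myod1 (labelled Myf5-/-:MyoD-/-, here DKO), paired regulators of skeletal muscle formation, and the other group was wild type (WT). The labels give the BALB/c background for both genotypes and do not state whether RNA came from 1 embryo or a pool. The 4 arrays paired the genotypes once per design, from 6 µg of total RNA. Nothing was replicated, so no test was run, no p-value is given, and the number of arrays limits the precision of every value.

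The values are linear signals, 1 per probe set, each array scaled by the authors to a common trimmed mean, and every ratio is the array labelled DKO over the array labelled WT of the same design. Myod1 went against the labels: its probe set on MOE430A had a signal of 1081 on the array labelled DKO and 85.0 on the array labelled WT, at least 3.80-fold higher. Its probe set on MOE430B, dimmer than the design median, had 607.2 on the array labelled DKO and 337.2 on the array labelled WT, 1.80-fold higher. Myf5 read 8.94 on the array labelled DKO and 110.5 on the array labelled WT, both below the floor of 284.5, the 25th percentile of the design. Whether either probe set falls in a deleted stretch is not known here, so every direction below rests on the labels. The median ratio of controls for cytosolic 18S ribosomal RNA was 3.93 on MOE430A and 3.15 on MOE430B, higher on the arrays labelled DKO. The ratio of the 3′ to the 5′ control probe set, a sign of RNA integrity, was 1.03 for beta-actin on the array labelled DKO and 1.01 on the array labelled WT of MOE430A. Whether the 18S difference bears on the member genes was not tested.

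As a group the mitoribosomal genes did not lean to either side. By the probe set that stands for each gene, 39 of 76 read higher and 37 lower in the lung labelled DKO, and the median log2 ratio was 0.00. Across all 12545 genes measured, 49.3% read higher and 50.7% lower, and the median was -0.01. Past 1.5-fold stood 5 members that read higher and 4 that read lower, together 11.8%. Of all genes measured, 9.37% passed that line upward and 9.44% downward, 18.8% in all. No member reached 2-fold by this probe set, against 7.52% of all genes past 2-fold in either direction. That share pools both designs, and such genes were rarer on MOE430A, which read most members. On MOE430A 135 of 7646 genes passed 2-fold upward and 136 downward. On MOE430B 474 of 6719 passed it upward and 420 downward. A gene counted as measured where its brighter array read at least the design median, 789.2 on MOE430A or 858.2 on MOE430B. All 76 member genes passed by at least 1 probe set, and 128 of their 160 probe sets passed. On MOE430A, the design that read 74 of the 76 genes, 10.8% of members and 12.5% of all genes were past 1.5-fold, and 35 of the 74 members read lower, where 48.7% of all genes did. On MOE430B 3 of 22 members were past 1.5-fold, where 28.2% of all genes were.

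The medians of the large and the small subunit lay near 0 over both designs together, and differed in opposite directions between the designs. Of the 47 large subunit genes, 24 read higher and 23 lower in the lung labelled DKO, with a median log2 ratio of 0.00, an SD of 0.32 between genes and a range of -0.68 to 0.66. Of the 29 small subunit genes, 15 read higher and 14 lower, with a median of 0.01, an SD of 0.39 and a range of -0.85 to 0.93. On MOE430A alone the medians were 0.00 over 47 large and 0.09 over 27 small subunit genes. On MOE430B alone they were -0.05 over 15 large and -0.36 over 7 small subunit genes, on a design where 54.1% of all genes read lower. The spread between arrays was estimated from the 100 probe sets carried by both designs, whose log2 ratios differed by an SD of 0.35 between designs, or 0.24 for a single ratio. The differences between the subunit medians, -0.087 on MOE430A and 0.31 on MOE430B, were in opposite directions.

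**Figure D1:**
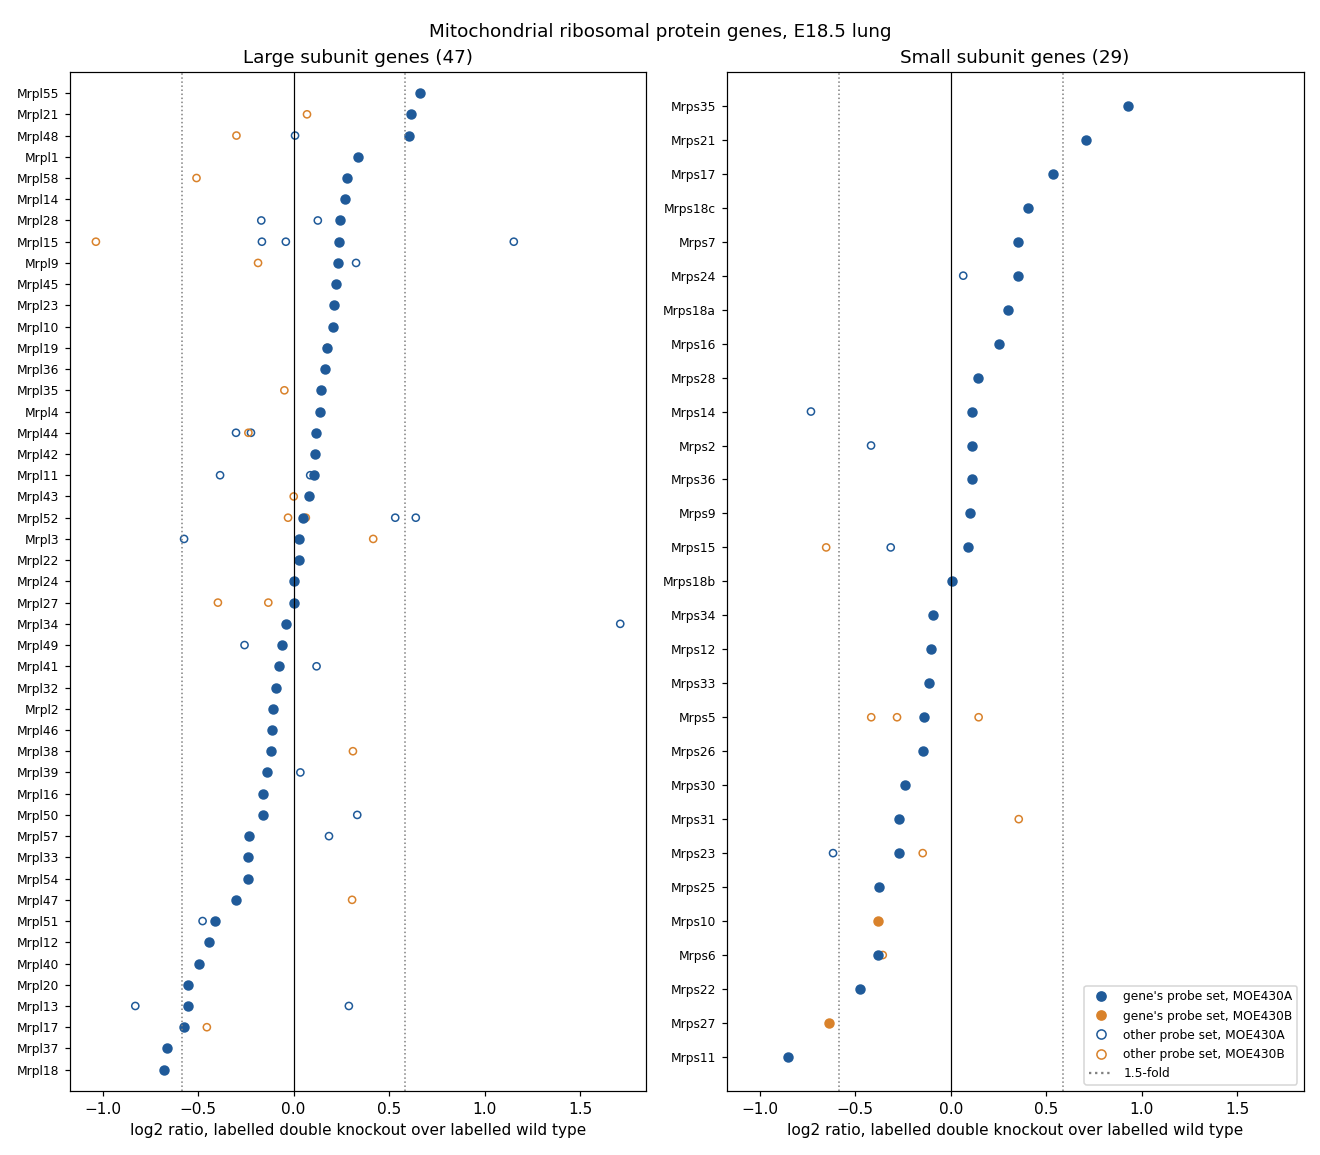
Log2 ratio of the array labelled double knockout over the array labelled wild type for the 47 large (left) and 29 small (right) subunit genes, 1 row per gene in order of its ratio. Filled points are the probe set that stands for the gene, open points its other passing probe sets, blue on MOE430A and orange on MOE430B, and dotted lines mark 1.5-fold. Both panels are centred near 0, and the open points of 1 gene often lie on both sides of it.

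The 5 members at least 1.5-fold higher in the lung labelled DKO were Mrps35, Mrps21, Mrpl55, Mrpl21 and Mrpl48. Mrps35, a protein of the head of the small subunit with no bacterial counterpart, had a signal of 3743 on the array labelled DKO and 1966 on the array labelled WT of MOE430A, a log2 ratio of 0.93 or 1.90-fold. Mrps21, the counterpart of bacterial S21, had 5090 on the array labelled DKO and 3119 on the array labelled WT, 1.63-fold higher. Each was read by a single passing probe set, and Mrps35 by no other. A dimmer probe set of Mrps21 on MOE430B did not pass. It had 385.0 on the array labelled DKO and 308.7 on the array labelled WT, a log2 ratio of 0.32. Mrpl55, a protein of the large subunit, read 1626 on the array labelled DKO and 1029 on the array labelled WT, 1.58-fold higher.

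The remaining pair, Mrpl21 and Mrpl48, were read on both designs, and the reading on MOE430B, by a different probe set, was smaller or opposite. Mrpl21, the counterpart of bacterial L21, had 3540 on the array labelled DKO and 2314 on the array labelled WT of MOE430A, a log2 ratio of 0.61. On MOE430B it had 4440 on the array labelled DKO and 4230 on the array labelled WT, a log2 ratio of 0.07. A dimmer probe set of Mrpl21 on MOE430A, which did not pass, stood at 0.68. Mrpl48, a protein of the central protuberance of the large subunit, read 0.61 and 0.01 on the log2 scale by its probe sets on MOE430A. On MOE430B it read 1604 on the array labelled DKO and 1973 on the array labelled WT, a log2 ratio of -0.30.

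The 4 members at least 1.5-fold lower were Mrps11, Mrpl18, Mrpl37 and Mrps27, each with a single passing probe set. Mrps11, the counterpart of bacterial S11 on the platform of the small subunit, had 969.8 on the array labelled DKO and 1751 on the array labelled WT, 1.81-fold lower. Mrpl18, a protein of the central protuberance, had 941.3 on the array labelled DKO and 1504 on the array labelled WT, 1.60-fold lower. Mrpl37, which has no bacterial counterpart, had 865.8 on the array labelled DKO and 1371 on the array labelled WT, 1.58-fold lower. All 3 stayed under the 75th percentile of MOE430A signals, 1832. Mrps27, a pentatricopeptide repeat protein of the small subunit read on MOE430B, had 1929 on the array labelled DKO and 2998 on the array labelled WT, 1.55-fold lower.

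Among members whose brighter array reached the 75th percentile of the design, further large subunit genes at the low end were Mrpl17, Mrpl13, Mrpl20, Mrpl40, Mrpl12 and Mrpl51, with log2 ratios from -0.58 to -0.41. Mrpl12, the stalk protein that recruits translation factors and in mammals also binds the mitochondrial RNA polymerase, had 2857 on the array labelled DKO and 3879 on the array labelled WT, a log2 ratio of -0.44. Mrpl17, which stands near the tunnel exit, read 2061 on the array labelled DKO and 3072 on the array labelled WT of MOE430A. Its probe set on MOE430B read 1373 on the array labelled DKO and 1881 on the array labelled WT, so that Mrpl17 was lower on both designs, at -0.58 and -0.45. Mrpl51 was lower by both of its probe sets on MOE430A, at -0.41 and -0.48. Mrpl13, the counterpart of bacterial L13, read -0.55, -0.83 and 0.29 by its 3 probe sets.

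Among large subunit genes that reached the same 75th percentile, those at the high end after Mrpl21 and Mrpl48 were Mrpl58, Mrpl14, Mrpl28 and Mrpl15 with log2 ratios from 0.24 to 0.28. The dimmer Mrpl1, a stalk protein, stood at 0.33. Mrpl58, also known as Ict1, is a peptidyl-tRNA hydrolase that rescues stalled mitoribosomes and is itself built into the large subunit. It read 6119 on the array labelled DKO and 5037 on the array labelled WT of MOE430A, a log2 ratio of 0.28. On MOE430B a different probe set read 1642 on the array labelled DKO and 2336 on the array labelled WT, at -0.51. These readings thus disagreed in direction.

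Among small subunit genes that reached the 75th percentile, those after Mrps35 and Mrps21 were Mrps17, Mrps18c, Mrps7 and Mrps24, between 0.35 and 0.54 on the log2 scale. Mrps17, the counterpart of bacterial S17, had 4600 on the array labelled DKO and 3170 on the array labelled WT, 1.45-fold higher. Mrps7, a protein of the head bound early in assembly, had 2375 on the array labelled DKO and 1858 on the array labelled WT, 1.28-fold higher. At the low end of these brighter genes, after Mrps27, stood Mrps22, Mrps10, Mrps23, Mrps31 and Mrps30, from -0.48 to -0.24. Mrps22, a small subunit protein with no bacterial counterpart, had 1385 on the array labelled DKO and 1928 on the array labelled WT, 1.39-fold lower. Of the dimmer genes, Mrps25 stood at -0.37, and Mrps6 was lower on both designs, at -0.38 and -0.36.

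The remaining members lay between these. Mrpl27, the counterpart of the bacterial L27 that reaches toward the peptidyl transferase centre, had 5248 on the array labelled DKO and 5249 on the array labelled WT of MOE430A. Mrpl24, near the tunnel exit, had 3418 on the array labelled DKO and 3411 on the array labelled WT. In all, 67 of 76 members were within 1.5-fold. By region of the ribosome, in groups set up after the values were seen, the median log2 ratio was 0.16 over 4 stalk proteins and -0.12 over 5 proteins of the central protuberance. It was 0.03 over 7 proteins around the tunnel exit, 0.10 over 7 proteins of the small subunit head and 0.01 over 4 of the platform. Each region held members on both sides.

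Places in the ribosome and bacterial counterparts were assigned from general knowledge of mitoribosome structures and not from a deposited file. Members whose symbol and place differ were examined separately. The 3 paralogs Mrps18a, Mrps18b and Mrps18c are related to bacterial S18, whose place Mrps18c holds, and structures of the mammalian ribosome place Mrps18a in the large subunit and the others in the small subunit. Mrps18c had 2621 on the array labelled DKO and 1983 on the array labelled WT, a log2 ratio of 0.40. Mrps18a had 3263 on the array labelled DKO and 2651 on the array labelled WT, at 0.30. Mrps18b had 1644 on the array labelled DKO and 1638 on the array labelled WT, at 0.01. Mrps18c and Mrps18a were thus above Mrps18b, though each was read by a single passing probe set. Mrps30, also found in the large subunit, had 1844 on the array labelled DKO and 2176 on the array labelled WT, at -0.24. Mrps36, now known as a subunit of the 2-oxoglutarate dehydrogenase complex and not of the ribosome, had 4192 on the array labelled DKO and 3879 on the array labelled WT, at 0.11. With Mrps18a and Mrps30 counted as large and Mrps36 as neither, the medians were 0.00 over 49 large and -0.04 over 26 small subunit genes.

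Proteins with and without a bacterial counterpart differed in their counts. Of the 44 members that stand in place of a bacterial protein, 27 read higher and 17 lower in the lung labelled DKO, with a median log2 ratio of 0.10. Of the 31 without one, among which Mrpl55 was placed without a check, 11 read higher and 20 lower, with a median of -0.11. Of all genes measured, 50.7% read lower. The gap of 0.22 between these medians was smaller with the median over each gene's probe sets, which gave 0.03 and -0.10. The counts then lay closer too, with 25 higher and 19 lower with a counterpart, and 13 higher and 18 lower without one. In the small subunit 11 of 16 with a counterpart read higher, against 2 of 10 without one, and Mrps35, the highest member of all, is 1 of those 2. In the large subunit 16 of 28 with a counterpart read higher, against 9 of 21 without one, and the mean log2 ratios were both near 0, at -0.022 and -0.025. No test can be made of this, because all members were read on the same arrays.

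The spread among probe sets of 1 gene was as wide as the spread among genes. In the 33 members with several passing probe sets, 85 in all, the SD within a gene was 0.41, and the SD between the 76 genes was 0.35. Such spread was not particular to the members. On MOE430A the SD within a gene was 0.43 over members and 0.37 over all genes. On MOE430B it was 0.23 over 3 members and 0.71 over all genes. The probe sets pointed in both directions in 23 of the 33 members, all lower in 6 and all higher in 4. The range within a member was over 0.5 on the log2 scale in 15. The same counts over all genes are not given here. Mrpl15 had the widest range: its 4 probe sets on MOE430A read -0.17, -0.04, 0.24 and 1.15, and the one on MOE430B read -1.03. The second probe set of Mrpl34 had 929.8 on the array labelled DKO and 130.5 on the array labelled WT, at least 3.27-fold higher, where its first, with 3683 on the array labelled DKO and 3784 on the array labelled WT, read -0.04. Different probe sets of a gene can read different transcript ends or splice forms, which was not tested.

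The 20 members read on both designs gave a second reading with separate arrays, by the same probe set only for Mrpl27 and Mrpl43. For the others the probe set changed with the design, so a difference between arrays and one between probe sets cannot be told apart. The same comparison over all genes is not given here. Their directions were the same for 9, lower on both for 4 and higher on both for 5, and opposite for 11. Across these 20 genes Pearson's r between the designs was -0.16 and Spearman's rho was -0.23, over genes that share the arrays and are not independent. The 4 lower on both designs were Mrpl17, Mrpl27, Mrps6 and Mrps23. The 5 higher on both were Mrpl3, Mrpl19, Mrpl21, Mrpl43 and Mrpl52. Mrpl27 had 5248 on the array labelled DKO and 5249 on the array labelled WT of MOE430A. Mrpl43 had 9039 on the array labelled DKO and 9038 on the array labelled WT of MOE430B. The place of Mrpl27 and Mrpl43 in these groups thus rests on near-equal signals.

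The same probe sets on both designs showed what 1 pair of arrays can return. A probe set of Mrpl52 had 3170 on the array labelled DKO and 2035 on the array labelled WT of MOE430A, a log2 ratio of 0.64. On MOE430B the identical probe set had 12126 on the array labelled DKO and 11603 on the array labelled WT, at 0.06. Another of the same gene read 0.53 on MOE430A and -0.03 on MOE430B. The probe set of Mrpl27 read -0.00 on MOE430A and -0.40 on MOE430B, and that of Mrpl43 read 0.08 and 0.00. All 4 shared member probe sets had the higher ratio on MOE430A, and over the 100 shared probe sets the ratio was higher there by a mean of 0.22. The gap between readings of the same probe set reached 0.58, in Mrpl52.

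**Figure D2:**
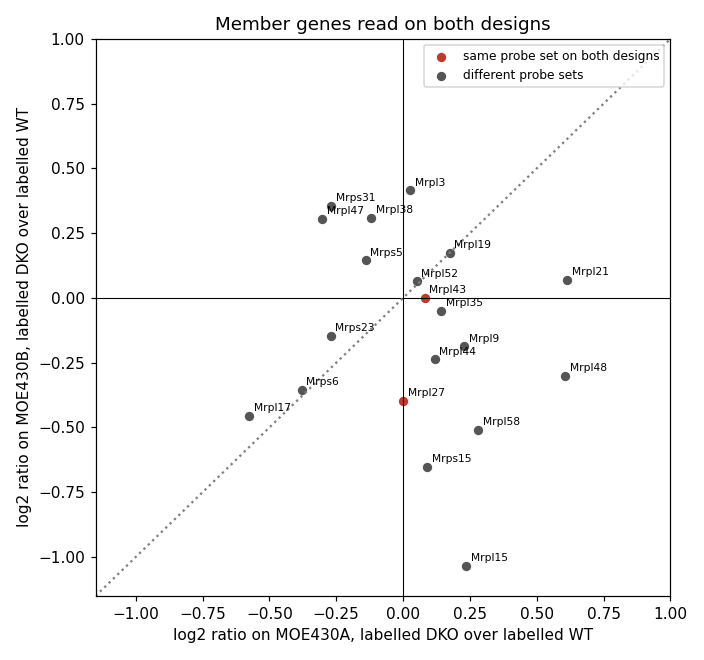
Log2 ratio of the array labelled double knockout over the array labelled wild type on MOE430A (x axis) against MOE430B (y axis) for the 20 members read on both designs, each by its brightest passing probe set. Red points are the same probe set on both, and the dotted line marks equal ratios. The points do not follow the line, with 9 in quadrants of 1 direction and 11 in the opposite ones.

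**Figure D3:**
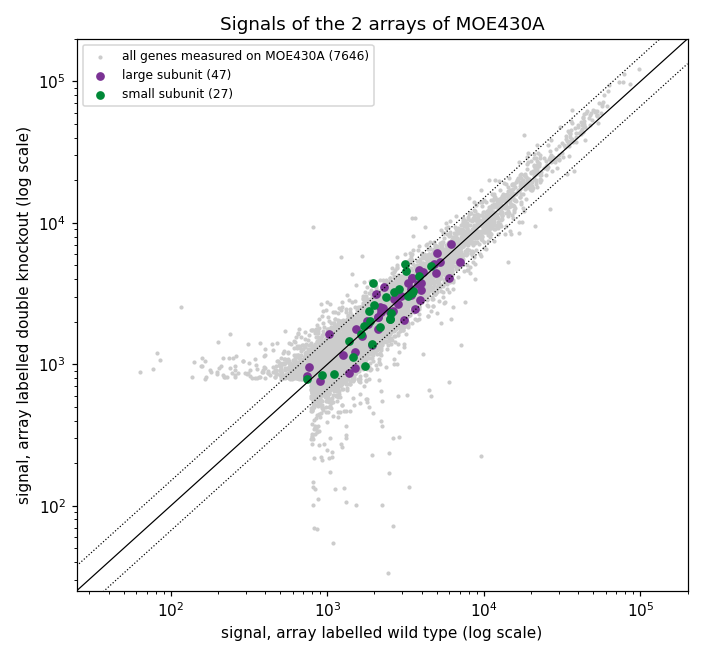
Signals of the array labelled double knockout (y axis) against the array labelled wild type (x axis) on MOE430A, both on log scales, for 47 large and 27 small subunit genes over all 7646 genes measured there. The solid line marks equal signals and the dotted lines 1.5-fold. The members lie along the solid line in the middle of the cloud.

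The promoters of the members were read for what they share, since nuclear genes of mitochondria are known as targets of NRF1, of the ETS factor GABP and of YY1. RefSeq promoters of build GRCm38.p6, from 250 bases before to 50 bases after a start, were matched for 67 of the 76 genes, 73 promoters in all. The ETS letters CCGGAAG, sought on both strands, stood in 34.2% of member promoters, in 8.86% of all 32851 promoters and in 15.3% of promoters of genes measured here. The YY1 letters ATGGCGG stood in 16.4% of member promoters, 4.05% of all promoters and 7.08% of those of measured genes. The NRF1 letters GCATGCG stood in 11.0% of member promoters, 3.58% of all promoters and 5.80% of those of measured genes. Of the matches in member promoters, 2 of 29 ETS matches overlapped an SP1 match (GGGCGG), and no YY1 or NRF1 match overlapped another motif searched.

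Members with and without the letters read on both sides. The median log2 ratio was -0.00 over 25 genes with an ETS match and 0.05 over those without one. It was -0.07 over 12 genes with a YY1 match and 0.01 over those without one. It was -0.04 over 8 genes with an NRF1 match and 0.00 over those without one. Of the 36 genes with any of the 3 motifs, 20 read lower, with a median of -0.07. Of the 31 with none, 13 read lower, with a median of 0.10. This gap was not tested. A match is a description of the letters and not a bound site. The CCAAT box (CCAAT) stood in 39.7% of member promoters, 37.4% of all and 36.9% of those of measured genes. The SP1 letters stood in 53.4% of member promoters, 35.7% of all and 58.8% of those of measured genes, and the E-box (CACGTG) in 9.59%, 7.15% and 9.13%. All these percentages count each promoter of a gene separately, such as the overlapping ones of Mrpl2. The 7 member promoters with an E-box thus belong to 5 of the 67 genes, and the 39 with SP1 letters to 34.

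The promoters of Mrps21 and Mrpl17 are shown because both hold ETS letters and the genes lay on opposite sides, at 0.71 and -0.58. Mrps21 lies at chr3:95871465-95871764 on the minus strand and Mrpl17 at chr7:105811038-105811337 on the minus strand, 5′ to 3′, with the ETS, YY1 and NRF1 matches in capitals.
Mrps21: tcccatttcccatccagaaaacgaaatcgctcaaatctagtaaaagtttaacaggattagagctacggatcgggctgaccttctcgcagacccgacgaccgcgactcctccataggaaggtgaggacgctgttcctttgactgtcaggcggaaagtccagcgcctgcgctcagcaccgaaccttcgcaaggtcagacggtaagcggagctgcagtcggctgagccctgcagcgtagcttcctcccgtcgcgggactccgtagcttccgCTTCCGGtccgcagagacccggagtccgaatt
Mrpl17: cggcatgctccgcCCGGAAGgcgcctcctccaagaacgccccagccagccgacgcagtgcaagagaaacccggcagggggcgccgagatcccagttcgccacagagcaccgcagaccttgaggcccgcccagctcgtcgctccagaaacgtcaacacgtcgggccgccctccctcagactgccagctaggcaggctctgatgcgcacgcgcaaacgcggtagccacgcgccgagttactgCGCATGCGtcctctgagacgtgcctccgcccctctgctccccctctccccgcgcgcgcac

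A start on the opposite strand lay within 500 bases for 23 of the 67 genes with a promoter, 34.3%, against 13.4% of 27025 genes in the table and 19.3% of genes measured here. Several of these neighbours serve the mitochondrion too. Mrps11 and Mrpl46, whose proteins sit in different subunits, start 42 bases apart and point away from each other. Mrps11 had the lowest ratio of all members, -0.85, whereas Mrpl46 read 2326 on the array labelled DKO and 2514 on the array labelled WT, at -0.11. Mrps12, the counterpart of the S12 of the decoding centre, starts 147 bases from Sars2, the mitochondrial seryl-tRNA synthetase. Mrps12 had 3030 on the array labelled DKO and 3254 on the array labelled WT, at -0.10, and Sars2 had 857.8 on the array labelled DKO and 857.4 on the array labelled WT, at 0.00. Both genes of that pair were thus near equal in the arrays.

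Mrpl43 starts 116 bases from Twnk, the helicase of mitochondrial DNA replication, with log2 ratios of 0.08 for Mrpl43 and -0.25 for Twnk. Mrpl47 starts 308 bases from Ndufb5, a subunit of respiratory complex I, with -0.30 for Mrpl47 and -0.13 for Ndufb5. Mrpl49 starts 192 bases from Fau, which encodes a protein of the cytosolic small subunit, with -0.06 for Mrpl49 and 0.77 for Fau. Of the 22 pairs, 15 had both genes measured, and 8 of those 15 read in the same direction. The rest read in opposite directions, among them Mrps12 and Sars2, where Sars2 stood at 0.00. The same count over all genes with such a neighbour is not given here. The promoters shared with Mrpl46, Sars2 and Twnk are printed, at chr7:78782881-78783180 on the plus strand, chr7:28741772-28742071 on the minus strand and chr19:45006393-45006692 on the minus strand, with matches in capitals as above.
Mrps11: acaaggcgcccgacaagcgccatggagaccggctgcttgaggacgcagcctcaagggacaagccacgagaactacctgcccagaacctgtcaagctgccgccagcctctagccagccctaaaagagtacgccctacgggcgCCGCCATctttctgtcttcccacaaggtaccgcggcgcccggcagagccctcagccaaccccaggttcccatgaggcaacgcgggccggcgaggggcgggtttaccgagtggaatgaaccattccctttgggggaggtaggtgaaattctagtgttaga
Mrps12: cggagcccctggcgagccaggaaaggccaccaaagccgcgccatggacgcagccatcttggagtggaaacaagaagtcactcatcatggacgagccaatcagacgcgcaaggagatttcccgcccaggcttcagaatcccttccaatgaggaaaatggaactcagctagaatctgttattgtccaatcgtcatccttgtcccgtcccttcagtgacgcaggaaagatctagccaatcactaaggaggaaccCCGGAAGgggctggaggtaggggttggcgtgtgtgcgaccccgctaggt
Mrpl43: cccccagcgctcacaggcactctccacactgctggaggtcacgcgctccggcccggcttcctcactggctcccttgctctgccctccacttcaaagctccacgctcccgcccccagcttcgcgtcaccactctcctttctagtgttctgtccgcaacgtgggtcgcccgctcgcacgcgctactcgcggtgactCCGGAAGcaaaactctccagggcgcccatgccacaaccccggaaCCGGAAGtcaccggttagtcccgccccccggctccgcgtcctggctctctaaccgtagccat

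The genes that work with the mitoribosome were read from lists chosen with earlier results of these data known. Mitoribosomal proteins with other symbols gave 3 measured genes of 5. Dap3, a GTP-binding protein of the small subunit, had 3385 on the array labelled DKO and 3382 on the array labelled WT, at 0.00, while Ptcd3 read -0.07 and Chchd1 -0.24. Of 15 measured mitochondrial translation factors, 10 read lower and 1 was past 1.5-fold, with a median of -0.13. Of 17 mitochondrial aminoacyl-tRNA synthetases, 8 read lower and 3 were at least 1.5-fold lower, with a median of 0.00. Those 3, named after their values were seen, were the alanyl-, tyrosyl- and glutamyl-tRNA synthetases. Aars2 had 602.1 on the array labelled DKO and 1928 on the array labelled WT of MOE430B, a log2 ratio of -1.68 by its single passing probe set. On that design 420 of 6719 measured genes were at least 2-fold lower. Yars2 stood at -1.23 by the brighter of its probe sets and 0.26 by the other, and Ears2 at -0.83 and 1.85, so that the probe sets of each disagreed in direction. Fars2, the phenylalanyl-tRNA synthetase, stood at 0.44, with 1929 on the array labelled DKO and 1421 on the array labelled WT.

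Of 21 factors of mitoribosome assembly and ribosomal RNA modification, 8 read lower and 13 higher, with a median of 0.03. Mtg2 and Gtpbp10, GTPases that join the large subunit in assembly, lay at opposite ends, both read on MOE430B. Mtg2 had 2852 on the array labelled DKO and 430.5 on the array labelled WT, a log2 ratio of 2.73 by 1 probe set. On that design 474 of 6719 measured genes were at least 2-fold higher. Gtpbp10 had 1621 on the array labelled DKO and 3118 on the array labelled WT, at -0.94, and -0.48 by its other probe set. Of 14 genes of mitochondrial DNA transcription and replication, 10 read lower, with a median of -0.17. Tfb2m, a factor of the mitochondrial transcription start, had 1354 on the array labelled DKO and 1984 on the array labelled WT, at -0.55, and Polrmt, the polymerase itself, stood at 0.13. Of 12 regulators of mitochondrial genes, 8 read lower, with a median of -0.12, and Gabpa, the DNA-binding subunit of GABP, stood at -0.67 by its brightest probe set and -0.05 by the other. The assembly median was 0.12 both with quantile normalization and with the loess curve removed.

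Other genes of mitochondria and of the cytosolic ribosome were set beside the members. Of 70 nuclear genes of oxidative phosphorylation, 49 read higher and 21 lower, with a median of 0.08, and 17 genes of import, chaperones and the citric acid cycle had a median of 0.05. Of 42 measured cytosolic ribosomal protein genes of 79 listed, 37 read higher in the lung labelled DKO and 5 lower, with a median of 0.28. That lean depended on the scaling: with quantile normalization 25 read higher with a median of 0.06, and with a loess curve removed 26 with 0.11. The oxidative phosphorylation median was 0.01 with quantile normalization and -0.00 with the loess curve removed, and that of import, chaperones and the citric acid cycle 0.01 and -0.00, so that the sign of both turned with the loess curve removed. The mitoribosomal median was 0.03 with quantile normalization and 0.01 with the loess curve removed, and 36 of 76 members read lower under each.

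**Figure D4:**
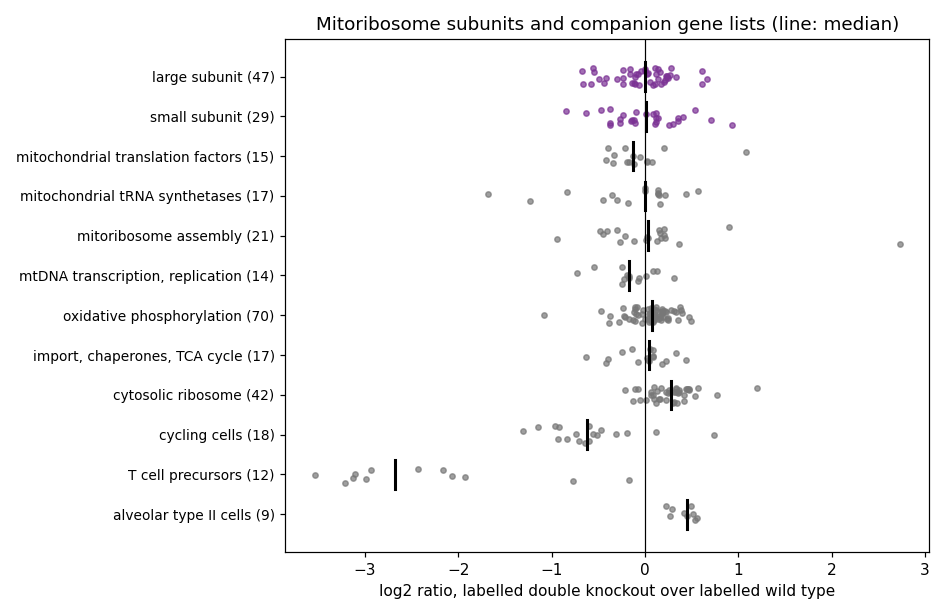
Log2 ratio of the array labelled double knockout over the array labelled wild type (x axis) for each measured gene of the mitoribosome subunits (purple) and of companion lists (grey), with the number of genes in brackets and the median as a black line. Both subunits are centred at 0, the cytosolic ribosome lies at 0.28, and genes of cycling cells and T cell precursors lie to the left.

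Markers of some other cells differed between these arrays while the members stayed centred. Of 17 listed markers of T cell precursors, 12 were measured. All 12 read lower in the lung labelled DKO, 11 of them past 1.5-fold. All but Zap70 passed the filter only through the array labelled WT, so the filter itself favoured lower readings. The median log2 ratio of the 12 was -2.68 or lower, because 5 of them (Rag1, Cd3d, Cd3g, Cd3e and Cd247) were below the floor on the array labelled DKO. The summed MOE430A signals of the 12 were 7077 on the array labelled DKO and 33400 on the array labelled WT. Of 18 markers of cycling cells, 16 read lower, with a median of -0.62 and summed signals of 50331 on the array labelled DKO and 78290 on the array labelled WT. All 9 measured markers of alveolar type II cells, a defining cell type of the lung, read higher, with a median of 0.45 that was 0.30 with quantile normalization and 0.28 with the loess curve removed. Sftpc, which encodes a surfactant protein, had 113337 on the array labelled DKO and 78525 on the array labelled WT. Of 14 cardiac muscle markers, 8 read higher, with a median of 0.04 that was -0.03 with quantile normalization and -0.04 with the loess curve removed. Their summed MOE430A signals were 423188 on the array labelled DKO and 388643 on the array labelled WT. The 6 measured of 13 listed skeletal muscle markers had a median of -0.90, and the 4 measured of 9 for brown fat -0.16. The 2 measured of 10 red cell markers, Alas2 and Slc4a1, had -0.95. Myh2 and Mylpf of the skeletal muscle list, and Slc4a1, passed the filter only through the array labelled WT, which favours lower readings. The 10 markers of endothelium had a median of 0.08 and the 9 measured of 10 for mesenchyme 0.22. The mesenchyme median was 0.08 with quantile normalization and 0.06 with the loess curve removed. In such bulk samples fewer cells of a type and less RNA per cell cannot be told apart, and the part of these cells in single members' ratios was not tested.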

How the data were processed

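RNA of E18.5 lung was measured on 4 Affymetrix arrays. The authors deposited linear intensity values. Per the submitters' processing notes MAS5 was used. Its version and settings were not given in the sources used here. The 2% trimmed mean of every array was 1500, so the authors had scaled each array on its own, and the designs are not on 1 scale (shared probe sets read a median 3.96-fold higher on MOE430B).

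After removal of 64 controls on each design, signals of the array labelled DKO were divided by 1 factor per design (1.004 and 1.008) so that the median ratio of passing probe sets was 1. Signals under the 25th percentile (284.5 and 279.1) were set to it. A gene was represented by its brightest passing probe set on MOE430A, or on MOE430B where MOE430A had none. Names came from GEO's platform annotation, and all 76 members matched RefSeq by Entrez identifier. With no replicate, no test was run. Other scalings, filters, floors and choices of probe set were tried as alternatives. The steps were tested on simulated data (python 3.11.15, numpy 2.4.6, pandas 2.3.3, statsmodels 0.14.6).

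The members and lists were chosen with earlier results of these data known. Named members were those past 1.5-fold, the 6 highest and 6 lowest of each subunit at or above the 75th percentile of signals, those read on both designs or with probe sets over 0.5 apart, and a few of known structural place. Of each companion list, the 2 highest and 2 lowest were eligible. Aars2, Yars2, Ears2, Mrpl1, Mrpl24, Mrpl46, Mrpl49, Mrps9, Mrps12, Mrps25 and the neighbouring genes fall outside that rule and were chosen after their values were seen.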

Additional observations from a re-analysis of the deposited data

How the results depend on the processing

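Across 14 other settings, the median log2 ratio of the large subunit stayed between -0.05 and 0.03, and that of the small subunit between -0.11 and 0.10 apart from MOE430B alone, where it was -0.36 over 7 genes. MOE430B alone left 22 genes, of which 13 read lower and 3 were past 1.5-fold. Counting every passing probe set, a setting added after seeing the data, gave 66 of 128 lower and 17 past 1.5-fold. These counts differ by construction, since fewer genes or more probe sets were counted. Of passing probe sets on MOE430A, 13.7% of the members' and 13.7% of all were past 1.5-fold. On MOE430B 11.5% of the members' and 34.1% of all were. Of the members' probe sets 48% read lower on MOE430A and 65.4% on MOE430B, against 50.1% of all on each. Of the 9 members past 1.5-fold, Mrpl48 turned to -0.30 on MOE430B alone, and the cause was not tested. It was 0.01 with the median over probe sets, and Mrpl21 was 0.07 on MOE430B. The other 7 have a single passing probe set, so no second passing reading could change their ratio. Mrpl37 dropped out without probe sets whose names end in _s_at or _x_at. With the filter at the 75th percentile Mrps11, Mrpl18, Mrpl37 and Mrpl55 dropped out. On MOE430A alone Mrps27 dropped out, and on MOE430B alone Mrps27 was the only one of the 7 measured. The scalings, and the filters that kept a gene, left its direction as it was. No paired analysis was possible because each group held 1 array. Signal over background limits the dim members, such as Mrps9 with 792.5 on the array labelled DKO and 738.2 on the array labelled WT.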
